A study of Homo sapiens with 34 samples.

Results

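Cadherins and epithelial-mesenchymal markers were read here as 10 genes, CDH1, CDH2, VIM, ZEB1, ZEB2, SNAI2, EPCAM, ESRP1, MSN and FN1, taken by symbol from a count table of 26336 genes. All 10 symbols were found. The table covers 34 poly(A)-selected RNA libraries of 4 human prostate cell lines in 17 groups. RWPE is labelled non tumorigenic prostate epithelium, LNCaP a lymph node metastasis, and VCaP and MDAPCa2a bone metastases. Cells grew on tissue culture plastic or on amorphous calcium phosphate (ACP), a mineral coating. Control medium was each line's own. RWPE had serum-free keratinocyte medium with EGF and bovine pituitary extract, LNCaP had RPMI, VCaP had DMEM:F12 and MDAPCa2a had BRFF-HPC1, the last 3 with fetal bovine serum. A second medium held charcoal-stripped serum, which is low in steroids, and the last added androgen to it at a labelled 100 mM. The titles call the hormone DHT and the treatment labels call it testosterone, so it is called androgen here. LNCaP and VCaP had plastic control, plastic stripped, ACP control, ACP stripped and ACP androgen groups. MDAPCa2a lacked ACP control, and its plastic was coated with a protein mix that its ACP surface did not carry. RWPE had plastic control, ACP control and ACP androgen groups only, so medium and androgen changed together in that line. A group held 2 libraries, except RWPE ACP androgen with 3 and VCaP plastic stripped with 1. Each line is a single culture model, and no label says that replicates came from separate cultures, so p-values measure the spread between these libraries, which may be technical.

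E-cadherin, the product of CDH1, joins epithelial cells at adherens junctions, and N-cadherin, from CDH2, does so in neural and mesenchymal cells. In epithelial-mesenchymal transition, zinc finger repressors of the SNAI and ZEB families bind E-box sequences in promoters such as that of CDH1, junctions are lost and the intermediate filament vimentin (VIM) and matrix fibronectin (FN1) are made. EPCAM is an adhesion protein of simple epithelia, ESRP1 sets the epithelial splicing pattern of many transcripts, and moesin (MSN) links actin to the plasma membrane. SNAI2 is also made in the basal layer of normal prostate epithelium.

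Libraries held 15.4 to 44.8 M counts, with 34.9 to 44.8 M in the 8 plastic control libraries and 15.4 to 37.0 M in the 26 others. The line labels fitted the line markers: the basal keratin KRT5 was at 2354 CPM (read counts scaled to library size by TMM) or more in RWPE and at most 13.1 in any other line, and ERG was at 125 or more in VCaP only. KRT8, a keratin of simple epithelium, was read in every library. The plastic control libraries stood apart in all 4 lines. The liver transcript FGG was at 1.41 to 2.83 CPM in all 8 and had at most 1 read in any of the other 26, and the immune transcript CD74 was at 4.71 to 17.1 against 0 to 4.49 CPM. They are also the only libraries labelled continuous culture and not day 4. Group, culture label and library set cannot be told apart there, so levels below are given for the other 26 libraries first.

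All 4 lines expressed the epithelial members in every library. CDH1 outside plastic control ran at 204 to 417 CPM (median 314) in RWPE, 456 to 758 CPM (median 505) in LNCaP, 242 to 445 CPM (median 294) in VCaP and 399 to 610.4 CPM (median 555) in MDAPCa2a. RWPE and VCaP overlapped, as did LNCaP and MDAPCa2a, and the first pair was mostly lower than the second. In the plastic control libraries CDH1 was at 508 and 549 CPM in RWPE, 829.8 and 873 CPM in LNCaP, 327 and 335 CPM in VCaP and 662 and 709 CPM in MDAPCa2a, the highest CDH1 values of LNCaP, RWPE and MDAPCa2a. EPCAM was highest in VCaP, at 333 to 591 CPM (median 429.7), with no overlap with RWPE at 166 to 216 CPM, LNCaP at 76.9 to 126 CPM or MDAPCa2a at 96.1 to 122 CPM among day 4 libraries. LNCaP and MDAPCa2a overlapped for EPCAM. ESRP1 followed another order: RWPE at 315 to 369 CPM, MDAPCa2a at 201 to 279 CPM, VCaP at 161 to 252 CPM and LNCaP at 67.4 to 106 CPM. RWPE and LNCaP did not overlap with any other line for ESRP1, while VCaP and MDAPCa2a did with each other, again among day 4 libraries. In the plastic control libraries ESRP1 was at 427 and 441 CPM in MDAPCa2a, above the 394 and 410 CPM of RWPE. VCaP held 180 and 229 CPM there and LNCaP 155 and 158 CPM. No day 4 library of MDAPCa2a was in control medium, so line and medium cannot be told apart in the day 4 order. Per kilobase of exon, CDH1 group means spanned 42.0 to 138 CPM per kb, EPCAM 32.1 to 211 and ESRP1 14.4 to 89.0. In bulk RNA, fewer cells of a kind and less RNA per cell cannot be told apart.

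**Figure D1:**
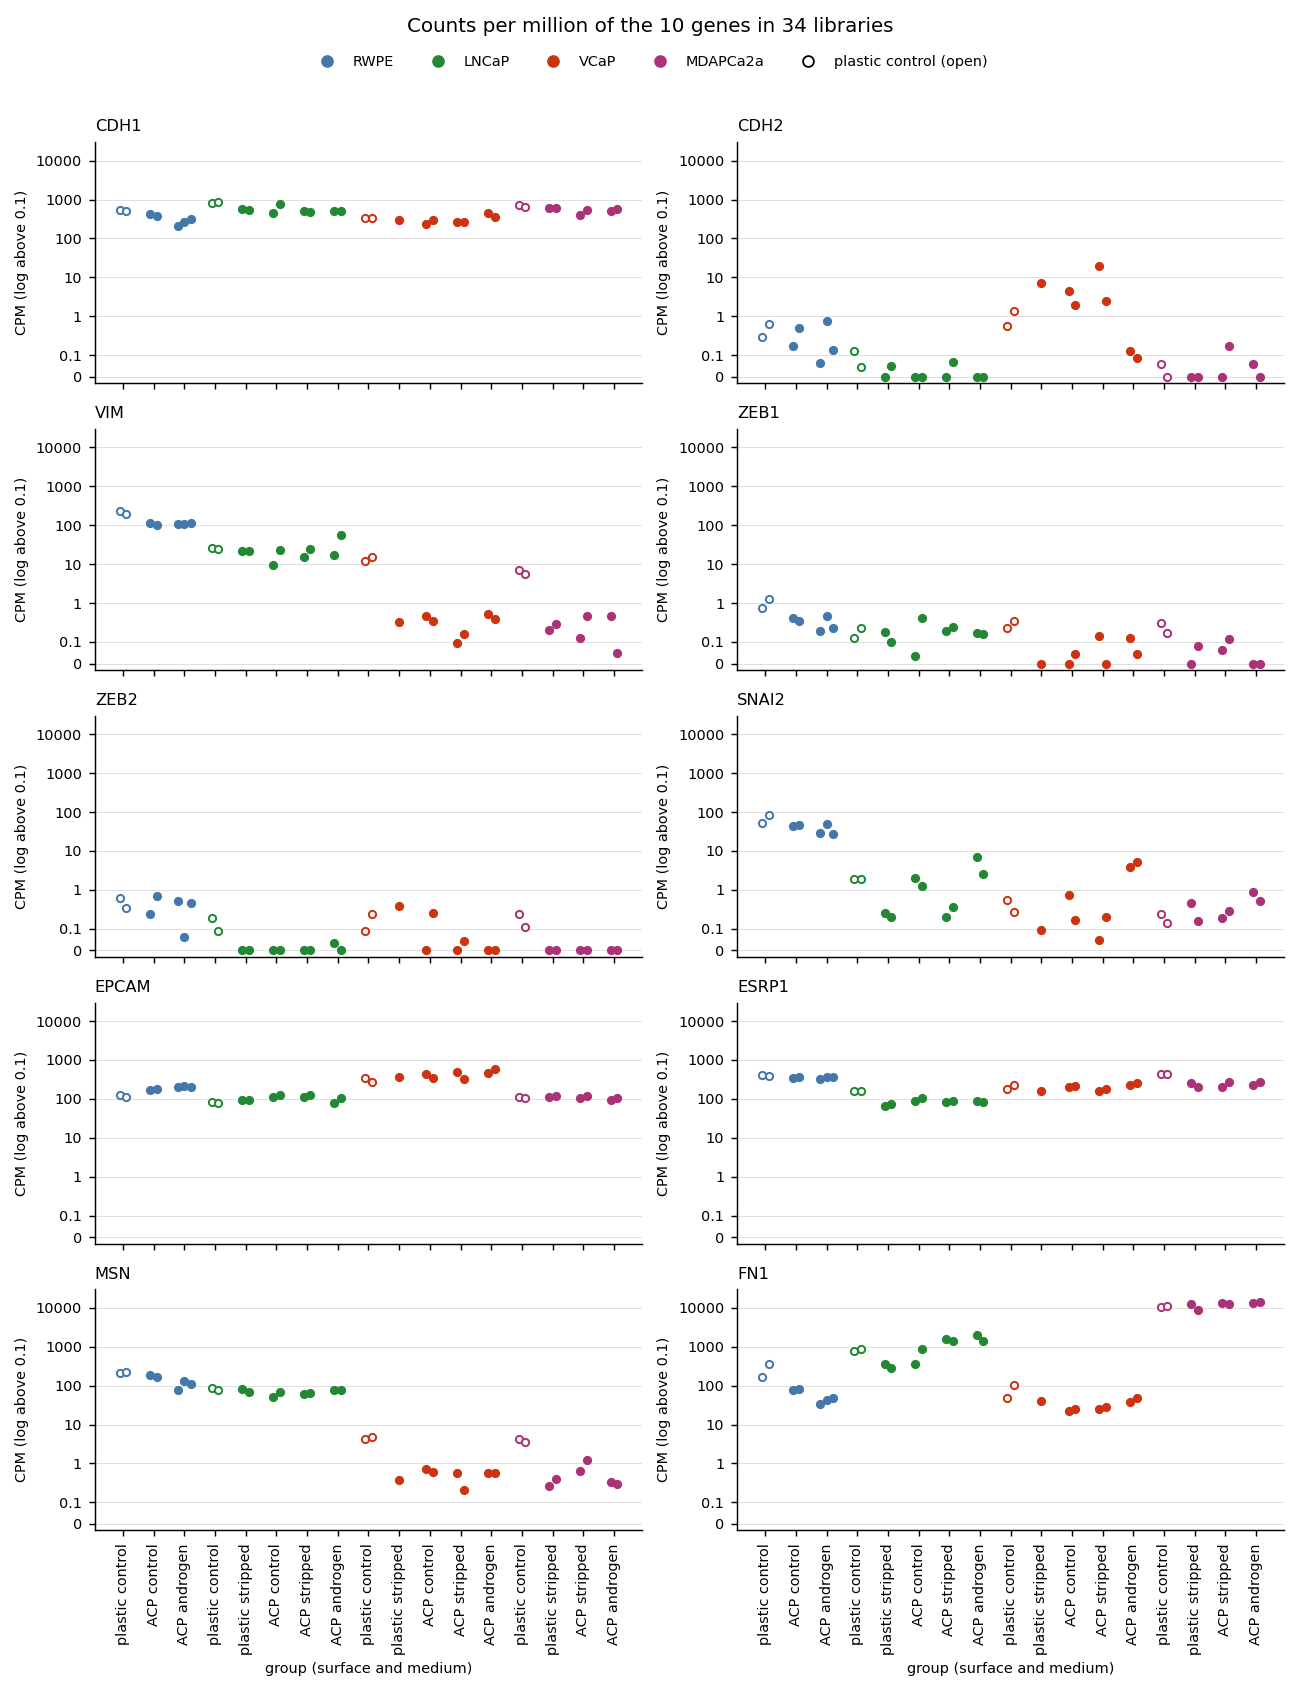
Level in CPM (log axis above 0.1, linear below) of each of the 10 genes in each of the 34 libraries, 1 point per library, coloured by line and placed by group, with plastic control libraries open. CDH1, EPCAM and ESRP1 lie between 67.4 and 873 CPM in all 34 libraries, while VIM, MSN, FN1 and SNAI2 span orders of magnitude between lines.

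The mesenchymal structural members VIM and MSN split the lines into 2 pairs, RWPE and LNCaP above VCaP and MDAPCa2a. VIM was at 100.1 to 117 CPM (median 111) in RWPE and at 9.37 to 57.2 CPM (median 21.7) in LNCaP outside plastic control. In VCaP it was at 0.0962 to 0.514 CPM and in MDAPCa2a at 0.0502 to 0.465 CPM, medians of 0.311% and 0.218% of the RWPE median. MSN had the same order, at 78.4 to 192 CPM in RWPE, 52.5 to 80.1 CPM in LNCaP, 0.204 to 0.733 CPM in VCaP and 0.266 to 1.22 CPM in MDAPCa2a. LNCaP thus held MSN at 53.5% of the RWPE median, overlapping with it, while VCaP and MDAPCa2a overlapped with each other far below. On ACP with androgen, VIM was 111 ± 5.06 CPM (SD, n = 3) in RWPE and 0.453 ± 0.0861 CPM (n = 2) in VCaP (difference in log2 ± SE -7.90 ± 0.58, adjusted p = 1.43e-11, edgeR's quasi-likelihood test with Benjamini-Hochberg adjustment). MSN was lower in VCaP than in LNCaP (log2 -7.10 ± 0.32, adjusted p = 5.53e-15), and in MDAPCa2a than in LNCaP (log2 -7.90 ± 0.34, adjusted p = 6.71e-15). VCaP and MDAPCa2a did not pass the test against each other for VIM (95% interval of the log2 difference -0.92 to 2.71) or MSN (-0.13 to 1.74). KRT5, the RWPE keratin, was also read at 0 to 12.3 CPM in the day 4 libraries of the other lines. The part of RWPE reads in the low VIM and MSN levels was not tested.

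In the plastic control libraries VIM and MSN were higher in VCaP and MDAPCa2a. VIM in VCaP was at 12 and 15.7 CPM (411 and 652 reads), against 2 to 12 reads in each of the other 7 VCaP libraries. In MDAPCa2a it was at 7.24 and 5.43 CPM on plastic in control medium. MSN was at 4.16 and 4.68 CPM in the VCaP plastic control libraries and at 4.30 and 3.63 CPM in those of MDAPCa2a. No other library of either line reached these values. In RWPE the plastic control libraries were also the highest for both genes, while those of LNCaP lay within the range of its other libraries for VIM and at 85.6 and 77.0 CPM for MSN, of which the first lies above that range. In MDAPCa2a, markers of other cell types moved with VIM and MSN: the summed level of 4 liver markers was at 5.48-10.3 CPM in plastic control against 0-0.628 CPM elsewhere, that of 7 leukocyte markers at 5.21-6.55 against 0.291-1.26 CPM, and that of 8 fibroblast markers at 4.93-6.49 against 1.08-2.43 CPM. In VCaP the same sums overlapped between plastic control and the rest, since ALB, LYZ and LUM are read there in day 4 libraries too. COL1A1, DCN, PDGFRA, PDGFRB, CD14 and CD79A in plastic control did not exceed the highest of the 7 other VCaP libraries (DCN 0.176 and 0.192 against up to 1.35 CPM). Some other single markers were higher in plastic control. FGG was at 2.43 and 2.83 CPM there and at 0 in the 7 others, APOA1 at 3.81 and 7.01 against at most 0.436 CPM, the collagen gene COL1A2 at 1.11 and 1.75 against at most 0.131 CPM and CD74 at 6.15 and 10.3 against at most 4.49 CPM. PTPRC, the pan-leukocyte gene, had 6 and 5 reads in those VCaP libraries and at most 1 in the 7 others. Their part in the VIM and MSN levels was not tested.

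**Figure D2:**
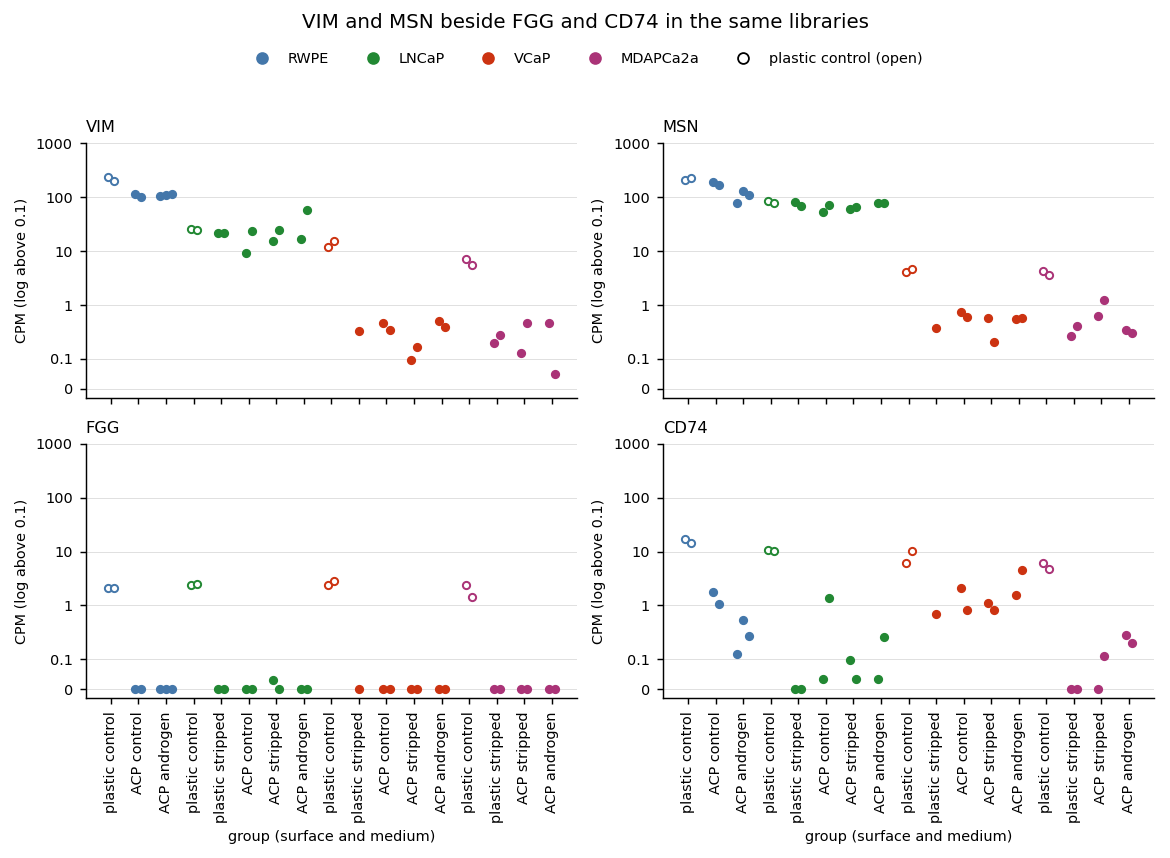
Level in CPM (log axis above 0.1, linear below) of VIM and MSN beside FGG and CD74 in each library, 1 point per library, by group, with plastic control libraries open. In VCaP and MDAPCa2a the 2 plastic control libraries lie above every other library of the line for both genes.

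Promoters are shown for VIM, MSN, CDH2 and FN1, 4 of the 6 members whose RefSeq promoters were used, as the 250 bases before the RefSeq start (GRCh38.p14, 5′ to 3′ on the gene's strand). Capitals mark GC boxes, GGGCGG or its complement CCGCCC, the element read by Sp1-family factors. VIM lies on chromosome 10, and its window is chr10:17227991-17228240, plus strand. MSN and CDH2 have 2 listed starts each, and that with more CpG is shown, the second for MSN (chrX:65667404-65667653, plus strand) and the first for CDH2 (chr18:28177131-28177380, minus strand), while the FN1 window is chr2:215436069-215436318, minus strand.

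VIM: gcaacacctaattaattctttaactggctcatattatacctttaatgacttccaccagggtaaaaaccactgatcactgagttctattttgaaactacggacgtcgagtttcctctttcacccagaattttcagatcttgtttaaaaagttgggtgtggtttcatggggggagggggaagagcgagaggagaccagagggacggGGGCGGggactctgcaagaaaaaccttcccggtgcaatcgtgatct
MSN: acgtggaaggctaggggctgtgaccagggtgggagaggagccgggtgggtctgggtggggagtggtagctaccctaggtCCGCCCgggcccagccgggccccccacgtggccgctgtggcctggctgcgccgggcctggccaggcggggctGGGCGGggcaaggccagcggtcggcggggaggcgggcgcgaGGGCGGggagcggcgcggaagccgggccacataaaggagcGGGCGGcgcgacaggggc
CDH2: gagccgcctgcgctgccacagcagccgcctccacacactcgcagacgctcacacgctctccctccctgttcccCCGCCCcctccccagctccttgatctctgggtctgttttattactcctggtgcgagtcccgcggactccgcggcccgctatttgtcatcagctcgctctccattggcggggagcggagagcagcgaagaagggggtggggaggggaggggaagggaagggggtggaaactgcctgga
FN1: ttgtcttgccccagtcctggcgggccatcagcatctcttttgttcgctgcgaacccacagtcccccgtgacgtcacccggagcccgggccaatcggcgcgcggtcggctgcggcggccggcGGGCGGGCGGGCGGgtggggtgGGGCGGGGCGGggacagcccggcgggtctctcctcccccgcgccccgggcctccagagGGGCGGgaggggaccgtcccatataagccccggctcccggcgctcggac

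The FN1 window held 32 CpG and 6 GC boxes, with overlapping matches each counted, MSN 26 and 4, CDH2 17 and 1, and VIM 8 and 1. At the start not shown, MSN had 5 CpG and 1 GC box, and CDH2 4 and 0. Over 35116 such RefSeq windows the median was 11 CpG, and 42.64% held at least 1 GC box on either strand. The E-box CACCTG, searched on both strands, is in none of the 4 windows and in 17.49% of all. The androgen half-site AGAACA is in none of the 4 and in 12.39% of all. Of the members whose windows are not shown, ZEB1 had 1 E-box match at its listed start 1 and 2 at start 3, and ZEB2 had none. No window of CDH1, EPCAM, SNAI2 or ESRP1 was searched. These are matches of letters and say nothing about binding.

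FN1, the gene of the matrix glycoprotein fibronectin, reached the highest level of the members. MDAPCa2a held 9000.1 to 13824 CPM outside plastic control and 10642 and 11129.7 CPM in it, or 620.1 to 785 CPM per kb as group means, above the group means of the 9 other members in any line. LNCaP held 290.2 to 2016 CPM (median 1117), RWPE 33.9 to 83.9 CPM and VCaP 22.3 to 48.4 CPM, with the last pair overlapping. On ACP with androgen FN1 was 13595 ± 324 CPM (SD, n = 2) in MDAPCa2a and 1693 ± 456 CPM in LNCaP (log2 3.01 ± 0.37, adjusted p = 4.19e-07, edgeR). LNCaP was above RWPE by log2 5.37 ± 0.35, adjusted p = 1.95e-12, and VCaP did not pass the test against RWPE (95% interval -0.54 to 0.72). The line order of FN1 was thus not that of VIM: MDAPCa2a held the most FN1, while RWPE, with the most VIM, had 0.366% of the MDAPCa2a median of FN1.

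Of the repressors, SNAI2 was highest in RWPE, at 26.6 to 50.4 CPM (median 42.7) outside plastic control and 51.6 and 81.8 CPM in it. All libraries of the other lines lay between 0.0481 and 7.11 CPM. On ACP with androgen the SNAI2 difference from RWPE was log2 -2.85 ± 0.43, adjusted p = 2.77e-06 in LNCaP, log2 -2.93 ± 0.44, adjusted p = 2.26e-06 in VCaP and log2 -5.68 ± 0.54, adjusted p = 2.15e-09 in MDAPCa2a. LNCaP and VCaP did not differ by the test (95% interval -0.94 to 0.79), and both were above MDAPCa2a (VCaP log2 2.75 ± 0.55, adjusted p = 0.000184). ZEB1 and ZEB2 were at the edge of detection in every line. ZEB1 reached 1.26 CPM at most, in RWPE on plastic in control medium, and ran at 0.188 to 0.476 CPM in the day 4 RWPE libraries, 0.0358 to 0.403 CPM in LNCaP, 0 to 0.144 CPM in VCaP and 0 to 0.116 CPM in MDAPCa2a. ZEB2 ran at 0.0595 to 0.688 CPM in RWPE, had 0 reads in every day 4 MDAPCa2a library and at most 0.0345 CPM in LNCaP and 0.378 CPM in VCaP. Folds on ACP with androgen were set against a floor of 3 counts over the group. By the RWPE mean, ZEB2 was at least 5.24-fold lower in VCaP and at least 4.24-fold lower in MDAPCa2a, and ZEB1 at least 3.72-fold lower in MDAPCa2a. The lowest RWPE library held 1 read of ZEB2 (0.0595 CPM), under the floors of VCaP (0.0648 CPM) and MDAPCa2a (0.0801 CPM), so the ZEB2 folds do not hold for each RWPE library. For ZEB1 the lowest RWPE library held 3 reads (0.188 CPM, group mean 0.298 CPM). It lies above the MDAPCa2a floor, but by less than the fold given. These floors cover counting error only. Antisense genes lie beside VIM, ZEB1 and ZEB2, and without stated strand use their reads cannot be told apart from those of the genes.

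CDH2 reached 1 CPM in VCaP only. It had 19.3 and 2.41 CPM in the VCaP libraries on ACP in stripped serum (402 and 59 reads), 4.35 and 1.94 CPM on ACP in control medium and 7.08 CPM in the 1 library on plastic in stripped serum. It had 0.557 and 1.34 CPM on plastic in control medium, and 3 and 2 reads (0.128 and 0.0871 CPM) on ACP with androgen. RWPE libraries held 0.0628 to 0.774 CPM, LNCaP 0 to 0.126 and MDAPCa2a 0 to 0.175 CPM. CDH1 stayed far above CDH2 per kb of exon in every VCaP group, at 43.1 against 2.20 CPM per kb where CDH2 was highest.

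**Figure D3:**
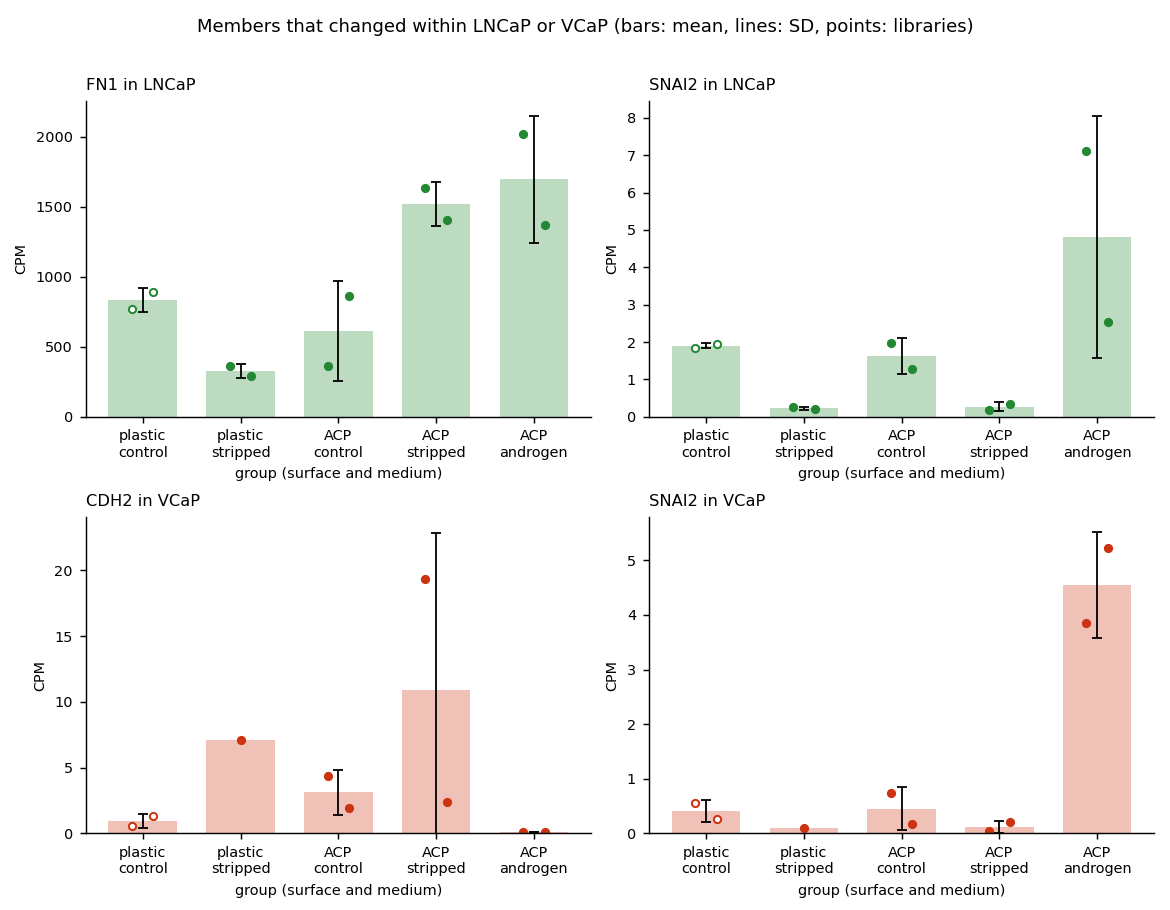
FN1 and SNAI2 in LNCaP and CDH2 and SNAI2 in VCaP by group, in CPM. Bars are group means, vertical lines the SD, and points single libraries, with plastic control open. The lower SD line of CDH2 in VCaP on ACP in stripped serum is cut at 0, since its 2 libraries differ widely.

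Between lines 40.2% to 67.4% of 17323 genes tested differed, so the number of members called says little about them. On ACP with androgen the test called 8 of 10 tested members (66.9% of 17323 genes) between LNCaP and RWPE, 7 of 10 tested members (67.4% of 17323 genes) between VCaP and RWPE and 9 of 10 tested members (64% of 17323 genes) between MDAPCa2a and RWPE. Between cancer lines it called 5 of 10 tested members (56% of 17323 genes) for VCaP and LNCaP, 6 of 10 tested members (45.3% of 17323 genes) for MDAPCa2a and LNCaP and 3 of 10 tested members (51.4% of 17323 genes) for VCaP and MDAPCa2a. On plastic in control medium the counts were 8 of 10 tested members (57.4% of 17323 genes) for LNCaP, 8 of 10 tested members (62.4% of 17323 genes) for VCaP and 6 of 10 tested members (56.7% of 17323 genes) for MDAPCa2a, each against RWPE. They were 6 of 10 tested members (52.6% of 17323 genes) for VCaP and LNCaP, 5 of 10 tested members (40.2% of 17323 genes) for MDAPCa2a and LNCaP and 6 of 10 tested members (52.4% of 17323 genes) for VCaP and MDAPCa2a. The lines were grown in different base media, so line and medium cannot be told apart. The 3 comparisons with RWPE on one surface share its libraries. With androgen on ACP, CDH1 was higher in each cancer line than in RWPE, by log2 0.98, 0.64 and 1.07 (adjusted p = 5.22e-05, 0.00375 and 1.88e-05 for LNCaP, VCaP and MDAPCa2a). The VCaP call was lost without its ACP androgen replicate 1 (log2 0.45, adjusted p = 0.092). On plastic in control medium the same CDH1 differences were log2 0.71, -0.66 and 0.38 (adjusted p = 0.00491, 0.00745 and 0.115), so that of VCaP had the other sign. EPCAM was higher in VCaP than in RWPE on both surfaces (log2 1.40 and 1.36, adjusted p = 5.59e-08 and 7.22e-07), and ESRP1 was lower in LNCaP than in RWPE on both (log2 -1.98 and -1.34, adjusted p = 1.14e-10 and 2.19e-07).

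With added androgen on ACP, against stripped serum on ACP, SNAI2 rose in LNCaP and VCaP, and CDH2 fell in VCaP. In LNCaP, SNAI2 was at 0.194 and 0.351 CPM (6 and 10 reads) without and 7.11 and 2.53 CPM (206 and 78 reads) with androgen. The groups did not overlap (log2 4.13 ± 0.57, adjusted p = 0.0019), and all 4 fits that left out 1 library kept the call (log2 3.19 to 4.70). In VCaP it was at 0.0481 and 0.204 CPM (1 and 5 reads) without and 3.85 and 5.23 CPM (90 and 120 reads) with androgen, again with no overlap (log2 5.07 ± 0.87, adjusted p = 0.0056; log2 4.49 to 6.42 in 4 such fits, all past the threshold). Both levels with androgen stayed under every RWPE library. In MDAPCa2a SNAI2 was at 0.19 and 0.291 CPM without and 0.856 and 0.502 CPM with androgen, which did not overlap but did not pass the test (log2 1.43 ± 0.73, adjusted p = 0.968). The SNAI2 effect did not differ by the test between VCaP and LNCaP (log2 0.92 ± 1.03, adjusted p = 0.64) or between VCaP and MDAPCa2a (log2 3.60 ± 1.24, adjusted p = 0.0743). CDH2 in VCaP, whose reads are given above, fell with androgen (log2 -6.60 ± 1.15, adjusted p = 0.00595), and its ACP stripped libraries differed from each other by more than 1.5 times. Over 4 fits without 1 library its log2 ran from -7.43 to -4.37, the last without VCaP ACP stripped replicate 1 (adjusted p = 0.0259). The call was lost without VCaP ACP androgen replicate 2 (log2 -6.36, adjusted p = 0.055). Markers of other cell types moved as well. The summed level of 8 fibroblast markers was at 41.2 to 162 CPM without androgen and 7.96 to 8.80 CPM with it, mostly LUM at 36.2 and 152 against 1.24 and 4.09 CPM, with COL1A2 at 0 and 0 against 0.128 and 0.131 CPM. LUM was higher in the stripped library with less CDH2. That of 7 leukocyte markers was at 8.89 to 15.8 CPM without and 83.6 to 159 CPM with androgen, mostly LYZ, with at most 1 read of PTPRC in a library. That of 4 liver markers was at 264 to 320.1 CPM without and 15.5 to 65.0 CPM with androgen, mostly ALB. That of 4 endothelial markers was at 0.818 to 1.51 CPM without and 12.2 CPM in both libraries with androgen, with PECAM1 at up to 8.71 CPM and CDH5 at 0 in all of these libraries. None of these 4 sums overlapped. Their part in the VCaP results was not tested. In LNCaP the fibroblast sum was at 18.2 to 19.8 CPM without and 16.8 to 17.4 CPM with androgen. The leukocyte sum was at 0.351 to 0.518 against 0.584 to 0.967 CPM and the liver sum at 0.907 to 1.51 against 0.552 to 0.714 CPM. The endothelial sum overlapped, at 30.3 to 36.8 against 14.5 to 35.9 CPM. The part of these markers in the LNCaP result was not tested.

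The other members did not pass the test with androgen. CDH1 in VCaP was at 267 and 265 CPM without and 445 and 348 CPM with androgen (log2 0.57 ± 0.20, adjusted p = 0.0697), and in LNCaP at 502 and 482 against 509 and 499.8 CPM (95% interval of the log2 difference -0.34 to 0.40). The VCaP groups did not overlap for CDH1, and those of LNCaP did. VIM in LNCaP was at 15.3 and 24.2 CPM without and 16.9 and 57.2 CPM with androgen, so 1 library set its mean, and in VCaP its reads were 2 and 4 against 12 and 9 (log2 1.75 ± 0.56, adjusted p = 0.0563). EPCAM changed by log2 -0.37 in LNCaP and 0.39 in VCaP (adjusted p = 0.196 and 0.306; difference of the effects log2 0.74 ± 0.26, adjusted p = 0.0667). MSN was at 0.634 and 1.22 CPM without and 0.342 and 0.301 CPM with androgen in MDAPCa2a, and at 0.577 and 0.204 against 0.557 and 0.566 CPM in VCaP. Neither passed its test (adjusted p = 0.968 and 0.553), while the difference of the effects did (log2 2.09 ± 0.64, adjusted p = 0.0447). That call held in only 2 of 8 fits without 1 library, those without VCaP ACP stripped replicate 1 and MDAPCa2a ACP stripped replicate 1 (log2 1.48 to 3.00 over the 8, adjusted p up to 0.202), and was lost in a fit without the plastic control libraries (log2 2.11, adjusted p = 0.0671). In all, androgen called 1 of 7 tested members (7.73% of 14656 genes) in LNCaP, 2 of 8 tested members (17.5% of 15614 genes) in VCaP and 0 of 7 tested members (0% of 13626 genes) in MDAPCa2a. In MDAPCa2a edgeR gave 1 member and 236 genes at an unadjusted p below 0.05, and with DESeq2 the test called 3 genes, 0 of them members. The differences of the effects were called for 0 of 10 tested members (10.9% of 17323 genes) between VCaP and LNCaP and 1 of 10 tested members (7.86% of 17323 genes) between VCaP and MDAPCa2a. For the first, an unadjusted p below 0.05 was reached by 1 member and 4334 genes, and 0 members passed in DESeq2.

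**Figure D4:**
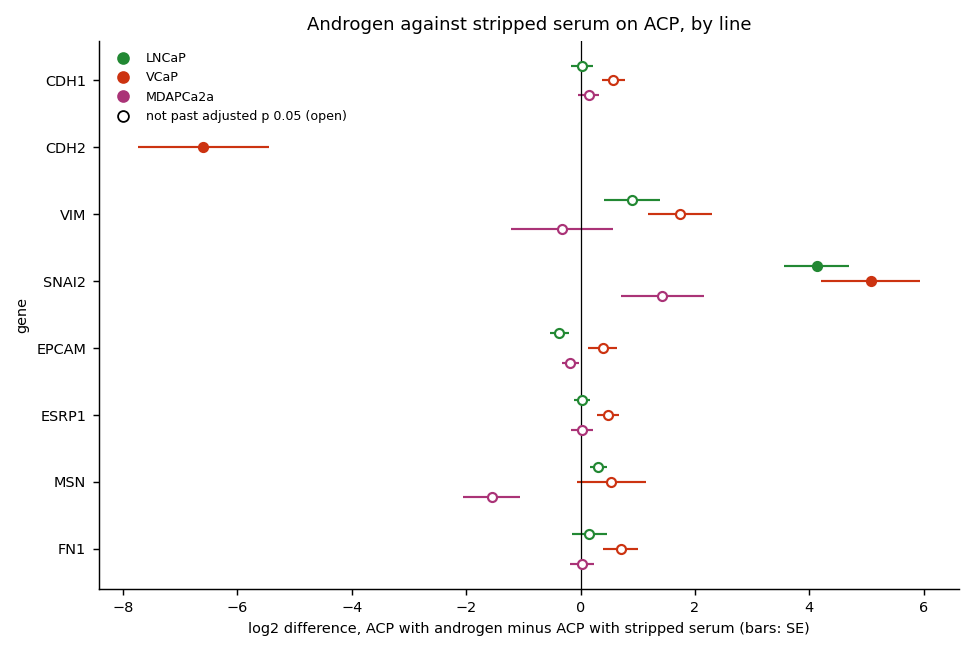
Difference in log2 between androgen and stripped serum on ACP for each member tested in LNCaP, VCaP and MDAPCa2a, with lines of 1 SE to each side and filled points for an adjusted p under 0.05. SNAI2 lies above 0 in LNCaP and VCaP, and CDH2 in VCaP lies below 0.

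The ACP surface was compared with plastic in stripped serum, which uses none of the plastic control libraries. In LNCaP, FN1 was at 364 and 290.2 CPM on plastic and 1630.1 and 1406 CPM on ACP. The groups did not overlap, and FN1 rose (log2 2.25 ± 0.33, adjusted p = 0.00429). The test called 1 of 7 tested members (6.12% of 14656 genes), and this call was lost without LNCaP plastic stripped replicate 1 (log2 2.33, adjusted p = 0.0762). The summed level of 4 endothelial markers was at 14.6 to 15.3 CPM on plastic and 30.3 to 36.8 CPM on ACP, with at most 1 read of CDH5 or PECAM1 in a library. That of 8 fibroblast markers was at 26.5 to 33.0 CPM and 18.2 to 19.8 CPM. The first sum was mostly VWF (12.3 to 36.7 CPM over the day 4 LNCaP libraries) and the second mostly COL1A1 (8.51 to 29.5 CPM). The part of these markers was not tested. In MDAPCa2a FN1 was at 12475 and 9000.1 CPM on plastic and 13496 and 12515 CPM on ACP, and in VCaP at 39.6 CPM in its 1 plastic library and 25.2 and 28.2 CPM on ACP. The FN1 effect did not differ by the test between LNCaP and MDAPCa2a (log2 1.93 ± 0.49, adjusted p = 0.0852), whose plastic was protein-coated. CDH1 in LNCaP was at 576 and 528 CPM on plastic and 502 and 482 CPM on ACP (95% interval of the log2 difference -0.51 to 0.23), and in MDAPCa2a the interval was -0.61 to 0.10. The test called 0 of 8 tested members (0% of 15614 genes) in VCaP, 0 of 7 tested members (0.00734% of 13626 genes) in MDAPCa2a and 0 of 10 tested members (0.358% of 17323 genes) for the difference of effects. At an unadjusted p below 0.05 edgeR gave 0, 1 and 2 members and 511, 2071 and 1618 genes in these 3 tests, and DESeq2 called 0, 0 and 2 members.

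On ACP, stripped serum was compared with control medium in LNCaP and VCaP. In LNCaP, SNAI2 was at 1.97 and 1.28 CPM in control medium and 0.194 and 0.351 CPM in stripped serum (log2 -2.59 ± 0.58, adjusted p = 0.0271), opposite in sign to the androgen effect, with which this comparison shares its stripped libraries. FN1 was at 362 and 863 CPM in control medium and 1630.1 and 1406 CPM in stripped serum (log2 1.30 ± 0.32, adjusted p = 0.0398). The summed level of 4 endothelial markers was at 12.4 to 15.8 CPM and 30.3 to 36.8 CPM in the same groups, nearly all of it VWF. That of 8 fibroblast markers was at 12.3 to 13.8 CPM and 18.2 to 19.8 CPM. That of 4 liver markers was at 0.586 to 0.751 CPM and 0.907 to 1.51 CPM, while the sum of 7 leukocyte markers overlapped. The part of these markers was not tested. The groups did not overlap for SNAI2 or FN1, and FN1 in control medium differed by more than 1.5 times between its libraries. Each call held only in the fit without LNCaP ACP control replicate 2 and was lost in the 3 others that left out 1 library, SNAI2 with log2 -3.08 to -2.21 (largest adjusted p = 0.236) and FN1 with log2 0.81 to 2.02 (largest adjusted p = 0.219). FN1 was also lost in a fit without the plastic control libraries (log2 1.29, adjusted p = 0.0606). The counts were 2 of 7 tested members (5.37% of 14656 genes) in LNCaP and 0 of 8 tested members (0.82% of 15614 genes) in VCaP, where an unadjusted p below 0.05 was reached by 1 member and 2585 genes, and 0 members passed in DESeq2. In VCaP, SNAI2 was at 0.733 and 0.172 CPM in control medium and 0.0481 and 0.204 CPM in stripped serum, which overlap, and CDH2 at 4.35 and 1.94 against 19.3 and 2.41 CPM, which overlap too.

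In RWPE on ACP, the androgen medium was set against control medium. FN1 was at 79.5 and 83.9 CPM in control medium and 33.9, 43.0 and 47.4 CPM in androgen medium (log2 -0.96 ± 0.28, adjusted p = 0.0384). MSN was at 192 and 168 against 78.4, 131 and 107 CPM (log2 -0.75 ± 0.21, adjusted p = 0.0333), and CDH1 at 417 and 388 against 204, 259.6 and 314 CPM (log2 -0.62 ± 0.19, adjusted p = 0.0481). All 3 fell, with no overlap between groups. The test called 3 of 10 tested members (19.1% of 14293 genes). VIM was at 112 and 100.1 against 107, 111 and 117 CPM (95% interval of the log2 difference -0.23 to 0.41), SNAI2 was at 42.7 and 46.7 against 28.5, 50.4 and 26.6 CPM, and ESRP1 had an interval of -0.31 to 0.33. Of 5 fits that left out 1 library, CDH1 and FN1 passed only in that without androgen replicate 3, and MSN in those without androgen replicate 2 or 3, with log2 -0.76 to -0.48, -1.06 to -0.84 and -0.94 to -0.59 and adjusted p up to 0.305, 0.275 and 0.28. Without the plastic control libraries in the fit, CDH1 (log2 -0.62, adjusted p = 0.0867) and MSN (log2 -0.76, adjusted p = 0.0588) were not called. The summed level of 5 basal markers, KRT5 among them, was at 13596 to 16974 CPM in control and 3631 to 11818 CPM in androgen medium. That of 8 fibroblast markers was at 27.2 to 32.0 CPM and 15.2 to 21.2 CPM. The fibroblast sum was mostly COL1A1 (14.5 to 31.8 CPM over these libraries), with COL1A2 at most 0.179 CPM. The part of these markers was not tested.

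The last 6 comparisons used plastic control libraries, in which the library set and the group cannot be told apart. ACP against plastic in control medium called 2 of 10 tested members (4.16% of 14293 genes) in RWPE, 2 of 7 tested members (12.6% of 14656 genes) in LNCaP and 1 of 8 tested members (0.0448% of 15614 genes) in VCaP. In RWPE, VIM was at 236 and 197 CPM on plastic and 112 and 100.1 CPM on ACP (log2 -0.997 ± 0.18, adjusted p = 0.0175), and FN1 at 171 and 369.7 against 79.5 and 83.9 CPM (log2 -1.70 ± 0.32, adjusted p = 0.0197). The groups did not overlap for either gene. VIM was called in 0 of 4 fits without 1 library, and FN1 only in that without RWPE plastic control replicate 1 (log2 -1.12 to -0.86 and -2.15 to -1.04, adjusted p up to 0.218 and 0.229). In LNCaP, EPCAM was at 83.2 and 78.3 CPM on plastic and 115 and 122 CPM on ACP (log2 0.65 ± 0.17, adjusted p = 0.0295), and ESRP1 at 158 and 155 against 88.0 and 106 CPM (log2 -0.59 ± 0.15, adjusted p = 0.0262). EPCAM was called in 0 of 4 such fits, and ESRP1 only in that without LNCaP ACP control replicate 2 (log2 0.61 to 0.69 and -0.73 to -0.51, adjusted p up to 0.194 and 0.199). In VCaP the 1 member called was VIM, called in the fits without either plastic control library and not in those without either ACP control library (log2 -5.27 to -4.81, adjusted p up to 0.179). In a fit of all lines VIM in RWPE (log2 -1.02, adjusted p = 0.132) and EPCAM in LNCaP (log2 0.55, adjusted p = 0.0811) were not called.

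Stripped serum against control medium on plastic called 3 of 7 tested members (9.45% of 14656 genes) in LNCaP, 1 of 8 tested members (0.89% of 15614 genes) in VCaP and 2 of 7 tested members (1.58% of 13626 genes) in MDAPCa2a, all lower in stripped serum. In LNCaP, ESRP1 was at 158 and 155 CPM in control medium and 67.4 and 73.1 CPM in stripped serum (log2 -1.10 ± 0.15, adjusted p = 0.00131; log2 -1.22 to -0.99 and called in 4 of 4 fits without 1 library). SNAI2 was at 1.85 and 1.95 against 0.257 and 0.202 CPM (log2 -2.95 ± 0.59, adjusted p = 0.0108) and FN1 at 769.7 and 892 against 364 and 290.2 CPM (log2 -1.30 ± 0.32, adjusted p = 0.0273). No groups overlapped. SNAI2 was not called when replicate 1 of either group was left out, and FN1 in 0 of 4 such fits (log2 -3.10 to -2.87 and -1.41 to -1.18, adjusted p up to 0.114 and 0.149). SNAI2 in LNCaP was thus lower in stripped serum on both surfaces. FN1 was lower in it on plastic, against plastic control libraries, and higher on ACP. Both FN1 calls were lost in most fits without 1 library, and the difference between these effects was not tested. In LNCaP on plastic the endothelial sum was at 27.2 to 30.0 CPM in control medium and 14.6 to 15.3 CPM in stripped serum. The leukocyte and liver sums were also lower in stripped serum, and the fibroblast sums overlapped. The part of these markers was not tested. In MDAPCa2a, VIM (log2 -4.66 ± 0.62, adjusted p = 0.0174) and MSN (log2 -3.52 ± 0.42, adjusted p = 0.0144) were called, each in 0 of 4 fits without 1 library (log2 -4.93 to -4.40 and -3.85 to -3.21, adjusted p up to 0.162 and 0.139). VIM was the 1 member called in VCaP (log2 -5.30 ± 0.62, adjusted p = 0.0357). Stripped serum on plastic has 1 library there, so the other VCaP groups supply the spread. These falls use the VIM and MSN values of the plastic control libraries given above.

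Related genes were read from lists. Of 34 mesenchymal genes, on ACP with androgen LNCaP had 4 higher and 23 lower of 32 tested (median log2 -3.32, all genes -0.05, 66.9% of all genes called), VCaP 6 higher and 17 lower of 32 tested (median log2 -1.34, all genes -0.04, 67.4% of all genes called) and MDAPCa2a 3 higher and 22 lower of 32 tested (median log2 -2.78, all genes -0.09, 64% of all genes called), each against RWPE. With genes at 0 reads set at the floor, those medians were -2.86, -1.34 and -2.78. Of 28 junction and polarity genes, 27 in the table, LNCaP had 14 higher and 7 lower of 27 tested (median log2 0.46, all genes -0.05, 66.9% of all genes called), VCaP 10 higher and 11 lower of 27 tested (median log2 0.15, all genes -0.04, 67.4% of all genes called) and MDAPCa2a 10 higher and 9 lower of 27 tested (median log2 -0.11, all genes -0.09, 64% of all genes called).

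With androgen in VCaP, junction genes had 5 higher and 1 lower of 27 tested (median log2 0.35, all genes -0.03, 17.5% of all genes called). Claudin CLDN1 rose from 2.22 to 25.2 CPM (log2 3.50, adjusted p = 0.00215) and occludin OCLN, also a tight junction protein, from 40.6 to 104 CPM (log2 1.36, adjusted p = 0.00931), while RAB25, a small GTPase of epithelial trafficking, fell from 23.5 to 7.35 CPM (log2 -1.68, adjusted p = 0.0056). Mesenchymal genes had 4 higher and 7 lower of 29 tested (median log2 -0.30, all genes -0.03, 17.5% of all genes called): LOX, a collagen cross-linking oxidase, rose from 3.23 to 47.0 CPM (log2 3.86, adjusted p = 0.00104) and NT5E, the gene of the ectoenzyme CD73, from 1.77 to 12 CPM (log2 2.76, adjusted p = 0.00264), while WNT5A, a secreted Wnt ligand, fell from 12.3 to 1.97 CPM (log2 -2.65, adjusted p = 0.00456). Of these 6 genes, OCLN alone was lost in a fit without 1 library, that without VCaP ACP androgen replicate 2 (log2 1.11 to 1.69, adjusted p up to 0.0522 over 4 fits). In such fits 2 to 5 junction genes were higher, and 2 to 6 mesenchymal genes lower. The marker sums given for VCaP with androgen stand beside these genes too, and their part was not tested. The 11 other transcription factors of the transition had 0 higher and 0 lower of 4 tested (median log2 -0.55, all genes -0.03, 17.5% of all genes called), with 0 at an unadjusted p below 0.05 in edgeR and 0 called by DESeq2. In LNCaP with androgen, junction genes had 1 higher and 0 lower of 27 tested (median log2 0.08, all genes -0.01, 7.73% of all genes called), mesenchymal genes 2 higher and 1 lower of 27 tested (median log2 0.13, all genes -0.01, 7.73% of all genes called) and the transcription factors 0 higher and 2 lower of 7 tested (median log2 -0.48, all genes -0.01, 7.73% of all genes called). The latter 2 were GSC, from 7.70 to 4.30 CPM (log2 -0.85, adjusted p = 0.0405), and TCF3, from 69.9 to 42.3 CPM (log2 -0.73, adjusted p = 0.0458). GSC was called in 0 of 4 fits without 1 library and TCF3 only in that without LNCaP ACP androgen replicate 2 (log2 -0.92 to -0.76, adjusted p up to 0.219 and log2 -1.10 to -0.44, adjusted p up to 0.268). In MDAPCa2a none of these lists had a called gene with androgen in edgeR (junction genes median log2 0.07, mesenchymal -0.14, all genes -0.01). At an unadjusted p below 0.05 there were 0 junction genes, 1 mesenchymal gene and 1 transcription factor, and DESeq2 called 0 of them. In RWPE with androgen medium, junction genes had 0 higher and 9 lower of 27 tested (median log2 -0.31, all genes -0.02, 19.1% of all genes called), led by the desmosome genes DSP, from 1137 to 468 CPM (log2 -1.27, adjusted p = 0.017), and JUP, from 834 to 385 CPM (log2 -1.09, adjusted p = 0.017). The 9 epithelial regulators had 0 higher and 4 lower of 9 tested (median log2 -0.47, all genes -0.02, 19.1% of all genes called), among them ELF3, from 233 to 124 CPM (log2 -0.89, adjusted p = 0.0215). None of these 3 genes was called without either ACP control library, nor ELF3 without androgen replicate 1 (log2 -1.52 to -1.04, adjusted p up to 0.275 for DSP), and over the 5 fits without 1 library 0 to 13 junction genes and 0 to 7 regulators were lower.

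Across the 17 group means of log2 CPM, the genes of 13208 whose pattern was most like each member's are given with Pearson's r, as a description. The points share lines and libraries, and most of the variance is between lines. For CDH1 they were GGCX (0.94), ETV3 (0.94) and PLOD1 (0.94). For EPCAM they were UGCG (0.97), ING1 (0.96) and IFNGR2 (0.96), and for ESRP1 MTHFD1L (0.95), RND3 (0.94) and SLC1A5 (0.94). VIM was most like IK (0.97), HMCES (0.96) and CTSC (0.95), MSN like HFE (0.97), ZNF215 (0.97) and QKI (0.96) and FN1 like HLA-DQB1 (0.97), FAM65B (0.96) and PLXDC2 (0.96). SNAI2 was most like PGF (0.95), CHRM3 (0.93) and GBP1 (0.93), and CDH2 like CNRIP1 (0.96), PPP2R2B (0.96) and ACTN2 (0.95). For the barely detected ZEB1 they were UBAP1 (0.87), COX10 (0.87) and IK (0.86), and for ZEB2 TM9SF4 (0.87), WIPF1 (0.86) and CIZ1 (0.86).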

How the data were processed

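Gene-level read counts of poly(A) RNA from 34 libraries were used as the authors deposited them, whole numbers per gene symbol with no normalization. Per the submitters' processing notes STAR, HTSeq and hg19 were used, and no version, annotation or use of strand was found there. The 10 members and the gene lists were chosen with earlier results of these data known. All members are named in every group, and at most the 3 largest rises and 3 largest falls of a list.

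Counts were tested with edgeR 4.0.16 in R 4.3.3 (quasi-likelihood F test; TMM scaling; genes kept by filterByExpr at minimum count 10), with a Benjamini-Hochberg adjusted p below 0.05 over all genes tested as the threshold. The 15 comparisons within a line used that line's libraries (residual degrees of freedom 4 or 5), and 12 between lines and 3 differences of effects used all 34 (17). CPM use TMM sizes over all libraries. SE is the log2 change over the square root of F, and 95% intervals are 1.96 SE to each side. That multiplier takes no account of the few degrees of freedom, so the intervals, above all those within a line, are likely too narrow. Per-kb levels use union exon lengths of GENCODE on another build than the counts. Floors are 3 counts over a group. Likeness used log2 CPM (prior count 1) of genes with at least 5 CPM in a group. Replicates correlated at r of 0.974 to 0.993 across genes, and none was a copy of another.

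Alternatives were RLE size factors, no count filter, DESeq2 1.42.0, a replicate block, a fit of all lines, leaving out each library, and, chosen after seeing the data, a fit without the plastic control libraries. The steps were also run on simulated counts, in which groups had equal means apart from set changes. Real lines differ in far more genes, so that run does not measure performance between lines, and its outcome is not given here. Promoter sequences are from RefSeq (GRCh38.p14), used for 6 members. The basal marker sum in VCaP is not reported here.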

Additional observations from a re-analysis of the deposited data

Results flagged for a closer look

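The androgen effect on MSN, the gene of moesin, differed between VCaP and MDAPCa2a by log2 2.09 ± 0.64 (adjusted p = 0.0447, edgeR), which is a difference between 2 groups under the same contrast. On ACP without androgen MSN had 12 and 5 reads in the VCaP libraries and 10 and 21 reads in those of MDAPCa2a, and with androgen 13 and 13 reads in VCaP and 6 and 6 in MDAPCa2a. It was the only one of the 10 members with such a difference in the 3 tests of it. The call was lost in 6 of 8 fits without 1 library (log2 1.48 to 3.00, adjusted p up to 0.202).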

How the results depend on the processing

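Pairs of a tested member and a comparison that were called in the main fit or in any alternative numbered 123, of which 98 were called in the main fit. For these pairs 1121 alternative values were computed. Of these 962 kept direction and side of the threshold, 112 lost it, 44 gained it and 3 changed sign. The 3 are VIM with androgen in LNCaP without the second androgen library (log2 -0.22, to 1.51 over the fits without 1 library), CDH1 in stripped serum on ACP in LNCaP without the second control library (log2 0.0611, from -0.63), and FN1 on ACP in control medium in LNCaP without the first ACP library (log2 0.11, from -1.09). Where 1 library was left in a group, it is assumed to vary like the other groups, and the cause of changes was not tested.

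With no count filter, members called became 2 with androgen in LNCaP, 3 on ACP in control medium in VCaP, 3 in stripped serum on plastic in VCaP, 2 for the VCaP and MDAPCa2a androgen effects and 1 for the LNCaP and MDAPCa2a ACP effects. With DESeq2 the last 4 were 3, 3, 2 and 2. In a fit of all lines the count was 4 with androgen in VCaP (4545 genes in all against 2727), 1 and 1 on ACP in control medium in RWPE and LNCaP, and 3 and 2 in the 2 VCaP comparisons with plastic control. Without the plastic control libraries it was 1 in stripped serum on ACP in LNCaP, 1 with androgen medium in RWPE and 0 for the VCaP and MDAPCa2a androgen effects. Replicate numbers gave no steady pairing of the libraries. The replicate 1 minus replicate 2 difference in log2 CPM was correlated across genes between groups of a line. Its r ran from -0.337 to 0.42 over 25 pairs of groups, above 0.1 in 6. Among these were MDAPCa2a ACP stripped with ACP androgen (0.42) and LNCaP plastic stripped with ACP stripped (0.25). With the replicate block the counts became 0 in stripped serum on plastic in VCaP and 0 for the VCaP and MDAPCa2a androgen effects (VIM log2 -5.28, adjusted p = 0.0539; MSN log2 2.09, adjusted p = 0.0701).

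Without 1 library, members called ran from 1 to 2 with androgen in LNCaP, 1 to 2 in VCaP and 0 to 0 in MDAPCa2a, 0 to 1, 0 to 0 and 0 to 0 on ACP in stripped serum in these lines, 0 to 2 and 0 to 0 in stripped serum on ACP in LNCaP and VCaP, and 0 to 3 with androgen medium in RWPE. They ran from 0 to 1, 0 to 3 and 0 to 1 on ACP in control medium in RWPE, LNCaP and VCaP, and 1 to 2, 1 to 1 and 0 to 0 in stripped serum on plastic in LNCaP, VCaP and MDAPCa2a. Between lines on ACP with androgen they ran from 6 to 8, 4 to 7 and 7 to 9 against RWPE and 5 to 5, 5 to 5 and 3 to 3 between cancer lines, and on plastic from 7 to 8, 7 to 8, 4 to 6, 5 to 7, 5 to 5 and 4 to 6 in the same order. For the 3 differences of effects they ran from 0 to 1, 0 to 1 and 0 to 0. Over all genes the counts ran from 766 to 2318 against 2727 with androgen in VCaP and 0 to 6102 against 2730 with androgen medium in RWPE. With the replicate block, the counts over all genes rose in RWPE. They were 5741 against 2730 with androgen medium and 2661 against 595 on ACP in control medium. At 15.4 M to 44.8 M counts, ZEB1, ZEB2 and, outside VCaP, CDH2 had few reads, and in the fits of LNCaP, VCaP and MDAPCa2a they did not pass the count filter.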

Other observations

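Other cadherins moved in VCaP with androgen on ACP. Of 26 other cadherins and catenins, edgeR called 1 higher and 5 lower of 16 tested (median log2 -0.13, all genes -0.03, 17.5% of all genes called). CDH26 fell from 9.03 to 1.71 CPM (log2 -2.40, adjusted p = 0.00566), CDH4, the gene of R-cadherin, from 6.25 to 1.23 CPM (log2 -2.34, adjusted p = 0.0313), and CDH10 from 3.67 to 0.929 CPM (log2 -1.98, adjusted p = 0.0488). CDH13, the gene of T-cadherin, rose from 0.746 to 3.04 CPM (log2 2.03, adjusted p = 0.0233). In 4 fits without 1 library CDH26 kept its call, CDH4 kept it only without VCaP ACP stripped replicate 2, and CDH10 and CDH13 lost it (log2 -3.04 to -0.92, adjusted p up to 0.281 for CDH4, log2 -2.27 to -1.54, adjusted p up to 0.182 for CDH10 and log2 1.65 to 2.56, adjusted p up to 0.0937 for CDH13). In LNCaP the list had 1 higher and 2 lower of 10 tested (median log2 -0.12, all genes -0.01, 7.73% of all genes called), with CTNNA2, an alpha-catenin of neurons, from 0.489 to 5.98 CPM (log2 3.60, adjusted p = 0.0162), called in such fits only without LNCaP ACP androgen replicate 2 (log2 2.85 to 4.09, adjusted p up to 0.127).

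Of 7 partners or relatives of moesin, edgeR called 1 higher and 1 lower of 7 tested (median log2 0.17, all genes -0.03, 17.5% of all genes called) with androgen in VCaP. CD44, a hyaluronan receptor bound by moesin, fell from 52.3 to 16 CPM (log2 -1.71, adjusted p = 0.0177), and RDX, the gene of radixin, rose from 120.2 to 223 CPM (log2 0.89, adjusted p = 0.0301). Without 1 library RDX was called in 0 of 4 fits and CD44 only in that without VCaP ACP stripped replicate 2 (log2 0.74 to 1.05, adjusted p up to 0.158 and log2 -2.03 to -1.36, adjusted p up to 0.109). With androgen medium in RWPE the list had 1 higher and 2 lower of 7 tested (median log2 -0.46, all genes -0.02, 19.1% of all genes called).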
